A study of Mus musculus with 25 samples.

Results

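Ahnak and Avpi1 are 2 genes on mouse chromosome 19 that stood out among the chromatin contacts bound by KLF4 at day 3 of reprogramming. They were selected on those KLF4 values: of the 21129 pairs of 10 kb bins listed for KLF4 at day 3 and missing from the day 6 list, the 2 with the highest mean level each had the bin of one of these genes as an anchor. That level is counted per contacts of the pair's own chromosome, so it is not on 1 scale across chromosomes, and the 3 highest pairs were all on chromosome 19. Of 12695 genes that the deposited tables assign to a bin, these are 2, with 1 bin each: chr19:8980001-8990000 for Ahnak and chr19:42120001-42130000 for Avpi1 (build mm10). Every bin pair touching either bin was then read from all 9 contact lists of the study, which gave 60 distinct pairs, 35 of Ahnak and 25 of Avpi1.

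The lists came from 25 libraries of HiChIP, which ligates DNA ends that lie together in the nucleus and then precipitates them with an antibody, and of Hi-C, which uses no antibody. Reprogrammable fibroblasts (MEFs), derived from mouse embryos at E13.5, were heterozygous for an OKSM cassette (the 4 reprogramming factors, KLF4 among them), for the doxycycline-responsive activator rtTA3 and for an Oct4-GFP reporter; the design text places the activator, there named M2rtTA, at Rosa26 and the cassette at Col1a1. KLF4 HiChIP covered these cells after 3 days of doxycycline and ascorbic acid, taken in bulk (3 libraries), after 6 days, sorted for SSEA1 (4), and V6.5 embryonic stem (ES) cells in 2i medium (4). H3K27ac HiChIP, which follows acetylated histone found at active promoters and enhancers, covered the MEFs at passage 3 without induction (2), ES cells (2), and V6.5 cells labelled TKO in 2i without doxycycline (3) and after 24 h of it (3), and Hi-C covered MEF (2) and ES cells (2). Each library is a population of cells, so fewer cells with a contact and a weaker contact per cell cannot be told apart. In HiChIP a change in KLF4 or H3K27ac at an anchor and a change in contact cannot be told apart either. Day 3 and day 6 differ in the sort as well as in time.

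KLF4 is a zinc finger transcription factor that binds GC-rich CACCC-type sequences at promoters and enhancers, and it is one of the factors whose forced expression turns fibroblasts into pluripotent cells. A contact in KLF4 HiChIP joins 2 stretches of DNA of which at least one was bound, directly or through other proteins, by KLF4. Ahnak encodes a very large scaffold protein beneath the plasma membrane that binds the complex of annexin A2 and S100A10 and is abundant in fibroblasts and epithelia. Avpi1 encodes a small protein first described as induced by vasopressin in kidney cells.

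In the RefSeq annotation (GRCm38.p6, the same assembly as mm10) Ahnak lies on the plus strand at chr19:8989284-9076935, so its transcription start sits 716 bases before the end of its bin and nearly all of the gene lies in the 9 bins to the right. Avpi1 lies on the minus strand at chr19:42123275-42128993, wholly inside its bin, with its start 1007 bases before the bin's end. In both cases the pair that chose the gene joins the bin of the start to the bin just to the right. That neighbour is the first part of the gene body for Ahnak. For Avpi1 it is the upstream side, where the annotation has no protein-coding gene. The 250 bases upstream of each start are shown because these starts lie close to the border of the chosen contact. Both are written 5′ to 3′ on the strand of the gene, and capitals mark matches to the KLF-type motif GGGNGTG or to the GC box GGGCGG on either strand (RefSeq, GRCm38.p6, chr19:8989034-8989283 plus strand for Ahnak and chr19:42128994-42129243 minus strand for Avpi1).
Ahnak: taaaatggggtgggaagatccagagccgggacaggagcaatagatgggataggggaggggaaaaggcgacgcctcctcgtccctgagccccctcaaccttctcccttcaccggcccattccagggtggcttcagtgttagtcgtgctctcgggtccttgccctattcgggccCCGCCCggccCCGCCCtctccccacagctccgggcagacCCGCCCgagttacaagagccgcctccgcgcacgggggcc
Avpi1: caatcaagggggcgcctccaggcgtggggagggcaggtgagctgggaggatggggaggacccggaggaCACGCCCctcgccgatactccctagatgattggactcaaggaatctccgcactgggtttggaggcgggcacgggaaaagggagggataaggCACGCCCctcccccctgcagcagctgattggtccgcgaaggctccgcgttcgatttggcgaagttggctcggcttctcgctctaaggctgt

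The 2 windows held different motifs. The Ahnak window had 3 GC boxes, all on the opposite strand and beginning 78, 68 and 39 bases before the start, and 0 KLF-type matches. The Avpi1 window had 2 KLF-type matches, also on the opposite strand and beginning 182 and 91 bases before the start, and 0 GC boxes. No match overlapped another. Of 32851 upstream windows of the same length, 26.1% held at least 1 KLF-type match and 6.32% at least 2, whereas 32.7% held at least 1 GC box and 8.47% at least 3. The G and C content was 66.4% for Ahnak and 64.0% for Avpi1, against a median of 52.4% over all windows. These are matches of letters and no binding site was measured here.

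Depth set the precision of every value. HiChIP libraries held 48.7 to 181 M contacts, of which 1.10 to 4.33 M were on chromosome 19, and the authors' CPM is the count of a pair per M contacts of its own chromosome. In the HiChIP lists the median count behind a member pair ran from 11 contacts per library at day 6 to 28 in ES H3K27ac, and the lowest single count was 1. The lists had been filtered before deposit. In HiChIP every p-value was under 0.1 and the CPM was above 3 in every H3K27ac library and in replicates 1 and 2 of the KLF4 groups, so a pair missing from a list failed at least one of these limits, and its level may lie above 3 CPM. The labels were checked with marker genes by the number of their listed H3K27ac pairs. Of 6 genes set for each cell type, Esrrb, Twist1 and Prrx1 had no bin in the TKO lists, which supply the gene names. Over 5 pluripotency genes these summed to 1 in MEF and 92 in ES cells, and over 4 fibroblast genes to 32 in MEF and 1 in ES cells. In the KLF4 lists the pluripotency genes had 3 pairs at day 3, 0 at day 6 and 16 in ES cells, and the fibroblast genes had 6, 0 and 4.

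Ahnak and Avpi1 had many KLF4 partners at day 3 and few at day 6. Ahnak was listed with 16 partner bins at day 3, 4 at day 6 and 13 in ES cells, and Avpi1 with 14, 3 and 6. The day 6 list is shorter as a whole (4047 pairs, against 23720 at day 3 and 24589 in ES cells), and the choice of the genes rests on it, so these counts are a description. Among bins of chromosome 19 with any KLF4 pair at day 3, 98.7% had fewer pairs than the Ahnak bin and 98.0% had fewer than the Avpi1 bin, where the median was 2. The authors' FDR was under 0.1 for 2 of the 16 Ahnak pairs and 3 of the 14 Avpi1 pairs at day 3, where 0.535% of all pairs listed at day 3 had such a value. It was under 0.1 for 0 pairs of either gene at day 6 and in ES cells, where the shares over all pairs were 0.173% and 0.199%. The pair that chose each gene was among those under 0.1 at day 3. The day 3 FDR counts and shares of bins thus rest in part on the choice and are a description.

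**Figure D1:**
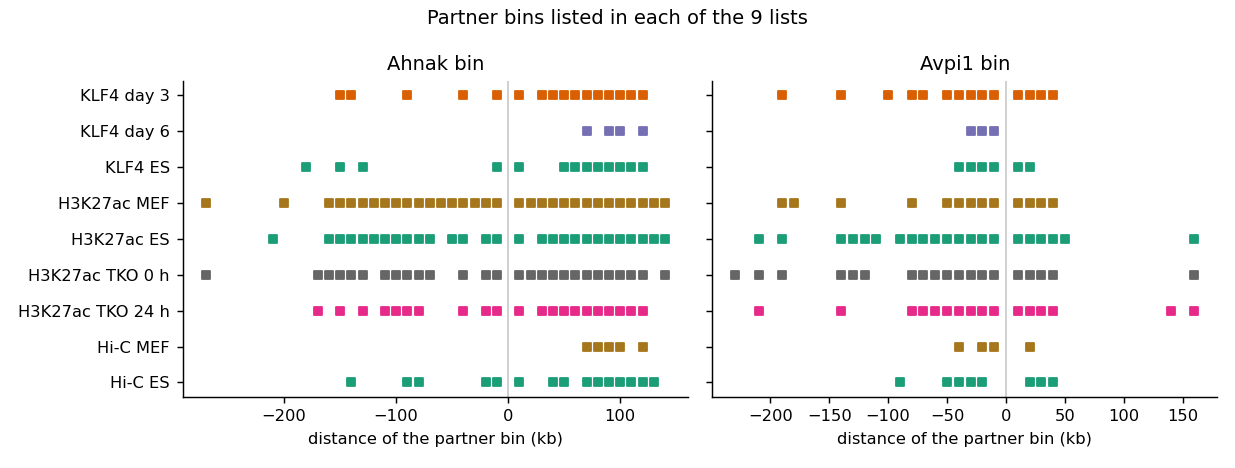
Partner bins of the Ahnak bin (left) and the Avpi1 bin (right) in each of the 9 lists, as the distance in kb of the partner from the gene's bin (horizontal axis; positive is towards higher coordinates); a square is a listed pair. At day 6 Ahnak has 4 partners and Avpi1 has 3, all of them listed at day 3 too.

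The partners lay on different sides of the 2 genes. At day 3, 11 of the 16 Ahnak partners were at higher coordinates, between 10 and 120 kb away, along the Ahnak gene body and past its end to the bin of Scgb1a1, which encodes a secreted airway protein, and beyond. The 5 others lay at lower coordinates, up to 150 kb away, and included the bins of Mta2, a subunit of the NuRD chromatin remodelling complex, of Ganab, the catalytic subunit of glucosidase II, and of Bscl2 with Gng3. Of the 14 Avpi1 partners 10 were at lower coordinates, up to 190 kb away, across Pi4k2a, a lipid kinase, Morn4 and Hoga1, a mitochondrial aldolase. The 4 at higher coordinates ended at 40 kb, in the bins of Marveld1 and Zfyve27.

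The pair that chose Ahnak joined its bin to chr19:8990001-9000000. It had 50.7, 37.2 and 29.1 CPM in the 3 day 3 libraries, from 65, 121 and 123 contacts, a mean of 39.0 ± 10.9 (SD, n = 3). Its absence at day 6 was part of the choice. In ES cells its KLF4 level was 16.7, 13.7, 17.0 and 22.7 CPM. Every day 3 library was above every ES library, and since day 3 levels chose the pair, this is a description. The order of the day 3 libraries was the reverse of their depth, with 54.4, 136 and 181 M contacts, and the part of depth in this order was not tested.

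The pair that chose Avpi1 joined its bin to chr19:42130001-42140000. Its KLF4 level was 39.0, 35.0 and 25.8 CPM at day 3, from 50, 114 and 109 contacts, a mean of 33.3 ± 6.76 (SD, n = 3). Its absence at day 6 was likewise part of the choice. ES cells had 15.3, 18.3, 21.6 and 23.5 CPM, all below the lowest day 3 library. Among the 285 adjacent-bin pairs of chromosome 19 listed at day 3 these pairs ranked 1 and 2, and among the 386 in ES cells they ranked 39 (Ahnak) and 17 (Avpi1). The day 3 ranks rest on the levels that chose the pairs, so they and their contrast with ES cells are a description. The pair that came next in the ranking by which the genes were taken, outside the choice, joined chr19:45040001-45050000 to the bin on its right with 29.6, 33.5 and 18.2 CPM, a mean of 27.1 ± 7.93 (SD, n = 3).

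Bins next to the chosen pairs were still listed at day 6. With each anchor allowed to lie 1 bin away, the day 6 list held 1 pair for each gene. For Ahnak it joined the bins on either side of the Ahnak bin, chr19:8970001-8980000 and chr19:8990001-9000000, at 11.8, 9.80, 6.80 and 5.49 CPM in the 4 day 6 libraries, a pair that does not touch the gene's own bin. For Avpi1 this was the pair with the bin on the other side of the gene, 10 kb to the left in Pi4k2a, at 9.09, 9.80, 14.7 and 10.6 CPM. That pair had 14.0, 18.1 and 14.4 CPM at day 3 and 15.3, 15.2, 17.0 and 18.5 in ES cells, so its day 6 and day 3 values overlapped. The 4 day 6 libraries did not differ from each other beyond counting noise in the chi-square check.

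Pairs listed at both day 3 and day 6 were lower at day 6. This held for 4 of 4 Ahnak pairs, with a median log2 ratio of day 6 over day 3 of -1.13, and for 3 of 3 Avpi1 pairs, at -1.24. Over all 2591 pairs in both lists, 97.4% were lower at day 6 and the median was -0.56. Since day 3 levels and absence at day 6 chose the genes, the difference from all pairs is a description. The Ahnak partners at day 6 lay 70, 90, 100 and 120 kb to the right. The strongest, at 70 kb inside the gene body, had 3.64, 4.90, 6.80 and 4.46 CPM at day 6 after 13.3, 9.82 and 7.57 at day 3, and 6.77, 6.86, 7.73 and 7.32 in ES cells. The pair 90 kb away, whose partner bin holds the 3′ end of Ahnak, went from 21.8, 10.4 and 13.0 CPM to 5.46, 5.79, 3.40 and 3.78, and stood at 6.77, 7.62, 8.76 and 9.63 in ES cells. In both pairs no day 6 library reached the lowest day 3 library. How often libraries separate in this way over all pairs in both lists was not counted, so this too is a description.

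**Figure D2:**
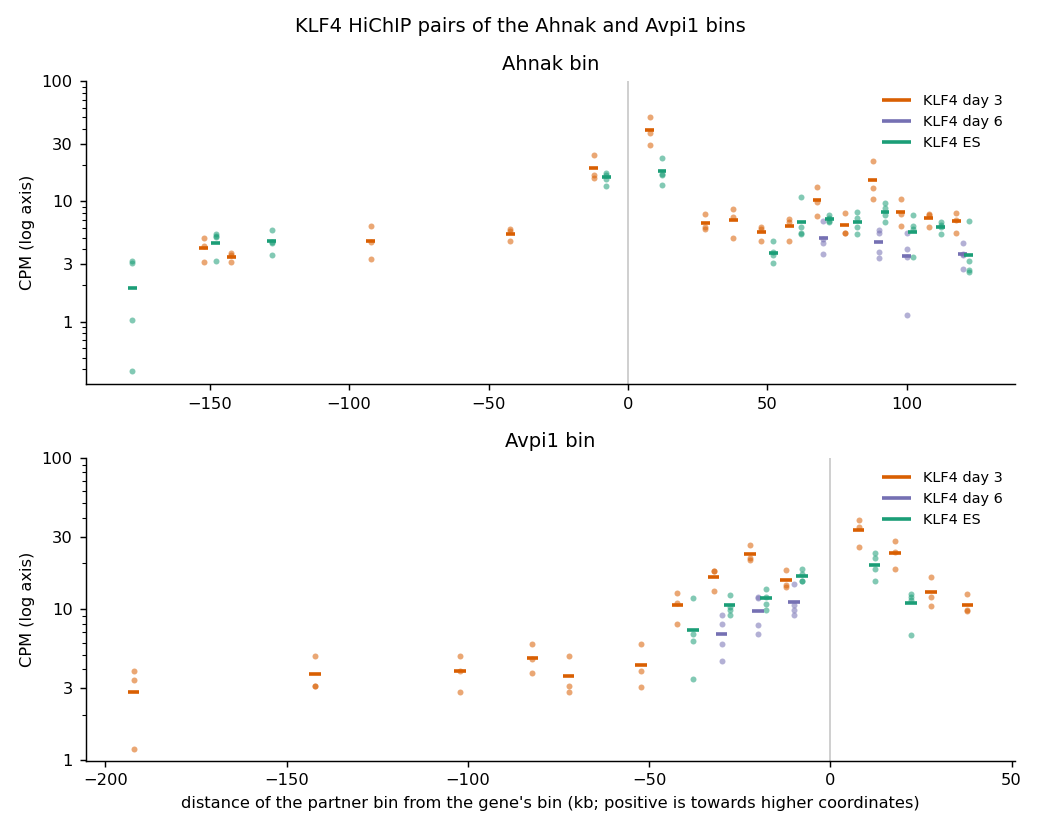
KLF4 HiChIP level (CPM, log axis) of each listed pair of the Ahnak bin (top) and the Avpi1 bin (bottom) against the distance of the partner bin in kb; dots are libraries, bars are group means, with the 3 groups set side by side around each distance. The highest dots are the pairs 10 kb to the right at day 3 (29.1 to 50.7 CPM for Ahnak, 25.8 to 39.0 for Avpi1), which have no day 6 dots.

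Day 3 and ES cells shared some of these KLF4 partners. For Ahnak 11 pairs were in both lists, 68.8% of its day 3 pairs and 84.6% of its ES pairs, and for Avpi1 6 were, 42.9% and 100%. Over all pairs, 31.1% of the day 3 list and 30.04% of the ES list were in both. Of the shared pairs 8 of 11 for Ahnak and 5 of 6 for Avpi1 were higher at day 3, with median log2 ratios of ES over day 3 of -0.52 and -0.69, where all 7387 pairs in both lists had a median of 0.00. Since day 3 levels chose the genes, this difference is a description. Among the shared pairs that were higher in ES cells, the Ahnak pair 60 kb away had 4.68, 6.75 and 7.10 CPM at day 3 and 5.42, 6.10, 10.8 and 5.39 in ES cells. The one such Avpi1 pair was that 10 kb to the left, given above.

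H3K27ac contacts, which had no part in the choice, separated the 2 genes: between MEF and ES cells the contacts of Ahnak were mostly lower in ES cells, whereas the pair that chose Avpi1 was higher there. Of the 27 Ahnak pairs listed in both, 20 were lower in ES cells, 0 were higher and 7 did not pass the test, and the median log2 change of ES over MEF was -0.94. Of the 12 Avpi1 pairs 1 was higher, 0 were lower and 11 did not pass, with a median of 0.36. The test was edgeR's quasi-likelihood test on raw counts over all 17901 pairs in both lists, with Benjamini-Hochberg adjustment and a call at an adjusted p under 0.05. Over all of them 32% were called in either direction, 17.6% higher and 14.4% lower in ES cells, with a median of -0.04. The Ahnak pairs share 1 bin and are not independent of each other.

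The adjacent Ahnak pair, the one that chose the gene in KLF4, measured 51.6 and 84.1 CPM in MEF and 30.6 and 31.2 CPM in ES cells, so both MEF values were above both ES values. It was lower in ES cells by a log2 change of -1.34 (SE 0.14, adjusted p = 4.94e-11 in edgeR's quasi-likelihood test). In MEF it ranked 2 among the 688 adjacent pairs of chromosome 19 listed for H3K27ac, and in ES cells 48 among 740.

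The largest change among the Ahnak pairs was in the gene body. The pair 80 kb to the right had 29.8 and 39.9 CPM in MEF and 8.0 and 8.55 in ES cells, a log2 change of -2.25 (SE 0.20, adjusted p = 2.29e-13). The pair 90 kb away, at the 3′ end of the gene, fell from 26.9 and 35.5 CPM to 13.7 and 13.9 (log2 change -1.36, SE 0.19, adjusted p = 4.59e-08). Past the end of the gene the pair 120 kb away averaged 15.9 ± 1.30 CPM in MEF and 6.53 ± 0.0842 in ES cells (SD, n = 2 each; log2 change -1.42, adjusted p = 5.84e-06), and the pair at 130 kb, in Asrgl1, averaged 12.1 ± 1.99 against 4.43 ± 0.603 (log2 change -1.56, adjusted p = 5.49e-06). In MEF the levels at 80 and 90 kb were above those at 40 to 70 kb, as the plot of H3K27ac levels shows, whereas ES cells had their highest value of this stretch at 90 kb.

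**Figure D3:**
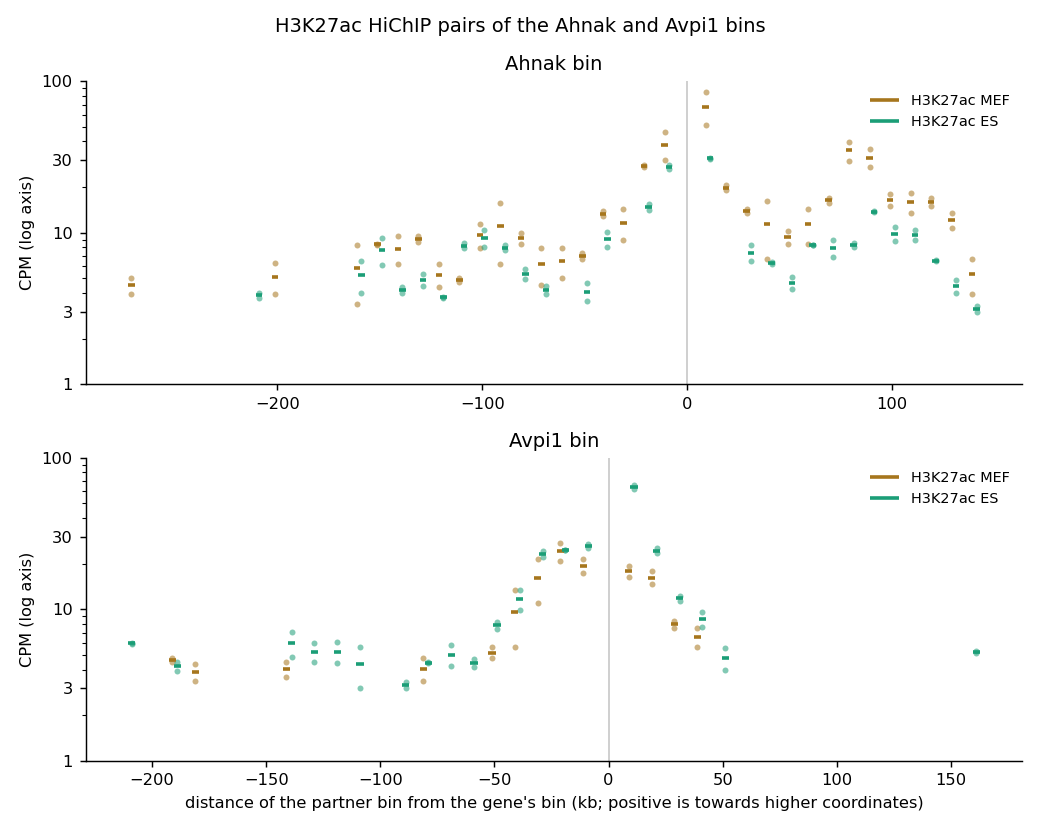
H3K27ac HiChIP level (CPM, log axis) of each listed pair of the Ahnak bin (top) and the Avpi1 bin (bottom) in MEF and ES cells against the distance of the partner bin in kb; dots are the 2 libraries of each group and bars their mean. MEF dots lie above ES dots 80 kb to the right of Ahnak (29.8 and 39.9 against 8.0 and 8.55 CPM), and ES dots lie above MEF dots 10 kb to the right of Avpi1 (65.9 and 62.2 against 16.3 and 19.3 CPM).

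Calls lay on both sides of Ahnak. To the right, 12 of 13 pairs tested were called, and to the left 8 of 14. Among those on the left, the pair 20 kb away at Eef1g, which encodes a subunit of the translation elongation machinery, had 28.1 and 27.2 CPM in MEF and 15.5 and 14.1 in ES cells (log2 change -1.05, SE 0.19, adjusted p = 1.38e-05). The pair 10 kb away had 30.3 and 45.8 against 27.8 and 26.4 (log2 change -0.69, adjusted p = 0.000527), and without replicate 2 of MEF its log2 change was -0.36 and it was not called. The pair 90 kb away, at Ganab, passed narrowly with 6.18 and 15.8 against 8.24 and 7.63 CPM (log2 change -0.72, adjusted p = 0.0335), and its MEF libraries lay on either side of the ES libraries. The one Ahnak pair with a value above 0, 110 kb to the left at Ubxn1, was not called (log2 change 0.59, adjusted p = 0.186).

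Avpi1 moved in 1 pair. The adjacent pair to the right had 16.3 and 19.3 CPM in MEF and 65.9 and 62.2 in ES cells, a log2 change of 1.67 (SE 0.16, adjusted p = 3.16e-12). It ranked 143 of 688 among adjacent pairs in MEF and 5 of 740 in ES cells. The next pairs out had smaller values that did not pass: 14.6 and 17.8 CPM in MEF and 25.4 and 23.3 in ES cells at 20 kb, in Marveld1 (log2 change 0.41, adjusted p = 0.105), and 21.3 and 11.1 against 24.2 and 22.2 at the bin of Pi4k2a 30 kb to the left (log2 change 0.44, adjusted p = 0.120, and -0.08 without replicate 2 of MEF). The pair 20 kb to the left, which was the strongest Avpi1 pair in MEF, had 27.5 and 20.9 CPM there and 24.7 and 24.7 in ES cells (log2 change -0.09, adjusted p = 0.757).

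**Figure D4:**
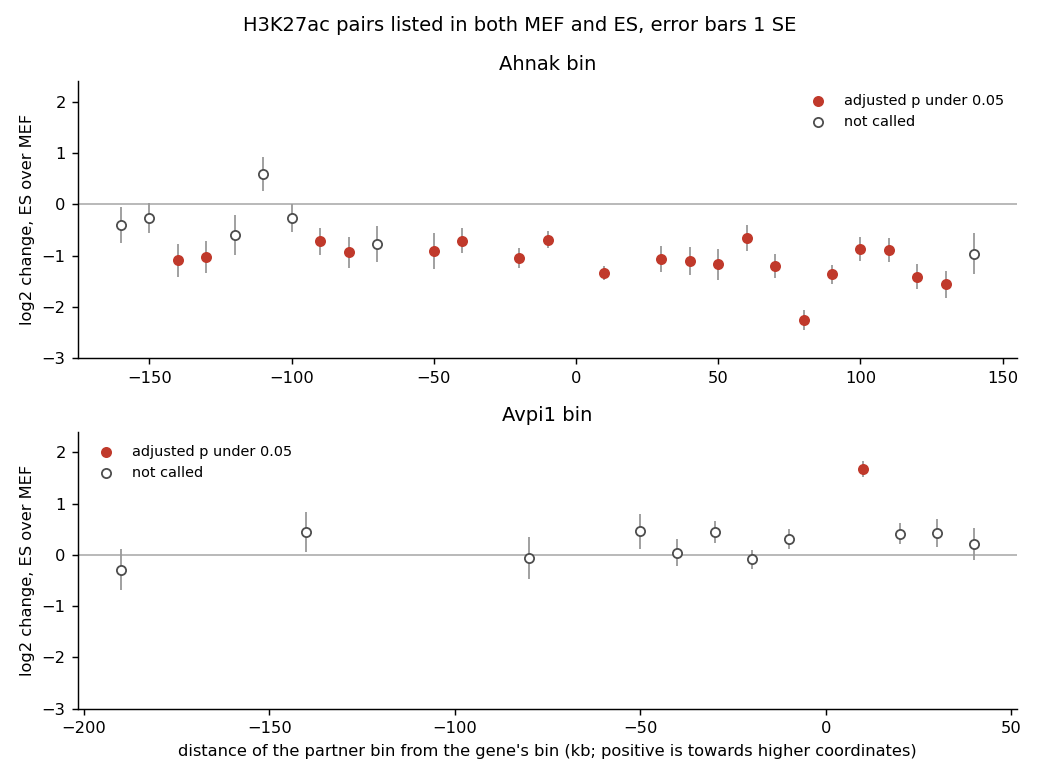
Log2 change of the H3K27ac contact (ES over MEF, edgeR; error bars 1 SE) of each pair listed in both groups against the distance of the partner bin in kb, for the Ahnak bin (top) and the Avpi1 bin (bottom); filled dots passed an adjusted p of 0.05. For Ahnak 20 of 27 dots are filled and all of these lie below 0, and for Avpi1 1 of 12 is filled, at 1.67.

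Without replicate 2 of MEF, whose adjacent Ahnak pair was the higher of the 2 MEF values, 10 Ahnak pairs and the Avpi1 pair were called in place of 20 and 1. With contact totals alone as the scale, without TMM, the test moved the median of all pairs to 0.21 and the calls over all pairs from 3152 higher and 2569 lower to 4831 and 1426; of the members it then called 15 Ahnak pairs lower and 1 higher, and 5 Avpi1 pairs higher.

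Over all pairs, 70.6% of the MEF list and 76.3% of the ES list were in that list alone. Ahnak had 32 H3K27ac pairs in MEF and 28 in ES cells, of which 5 were in MEF alone (mean levels 4.50 to 19.8 CPM) and 1 in ES cells alone (3.85 CPM). Avpi1 had 13 and 21, of which 1 was in MEF alone (3.86 CPM) and 9 in ES cells alone (3.15 to 5.95 CPM). A listed pair also had to have a p-value under 0.1, so a pair missing from one list may lie above 3 CPM there. The ES libraries were deeper, at 166 and 168 M contacts against 75.0 and 105 M, and the part of depth in this difference was not tested. All 16 Ahnak partners of KLF4 at day 3 were also H3K27ac partners in both MEF and ES cells, and 12 of the 14 Avpi1 partners were H3K27ac partners in MEF and 13 in ES cells. The share over all day 3 KLF4 pairs was not counted, and both bins had many H3K27ac pairs. Of chromosome 19 bins with any such pair, 99.9% in MEF and 98.5% in ES cells had fewer than the Ahnak bin. For the Avpi1 bin these shares were 94.8% and 95.9%.

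In the TKO cells the comparison asked what 24 h of doxycycline changed. None of the 36 member pairs listed at both times was called (0 of 21 for Ahnak and 0 of 15 for Avpi1 in edgeR's quasi-likelihood test), where 2.8% of all 67723 pairs were called. DESeq2 called 0 as well, but gave 29 of the 36 no adjusted p. At an unadjusted p under 0.05 there were 4 Ahnak and 3 Avpi1 pairs in edgeR, and 13.8% of all pairs. The adjacent Ahnak pair had 37.7, 44.1 and 40.5 CPM at 0 h and 30.3, 29.0 and 30.5 at 24 h (log2 change -0.35, SE 0.14, adjusted p = 0.159). The adjacent Avpi1 pair had 67.4, 69.6 and 66.2 CPM at 0 h and 49.0, 57.2 and 48.5 at 24 h (log2 change -0.28, SE 0.11, adjusted p = 0.175).

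In both adjacent pairs every library at 24 h was below every library at 0 h, but neither pair was called. How often libraries separate in this way over all pairs was not counted, so no change is read from it. Scaled by contact totals without TMM, both passed, at log2 changes of -0.46 and -0.38, while the calls over all pairs went from 407 higher and 1487 lower to 183 and 3019. On the other side of Avpi1 the values went up instead, with 32.0, 29.4 and 33.1 CPM at 0 h and 35.2, 38.9 and 37.0 at 24 h for the pair 10 kb to the left (log2 change 0.33, adjusted p = 0.201). The medians over the tested pairs were -0.21 for Ahnak and -0.02 for Avpi1. Ahnak had 6 of its 27 pairs listed at 0 h alone and 0 of 21 at 24 h alone, and Avpi1 had 4 of 19 and 1 of 16, where over all pairs 27.4% of the 0 h list and 19.6% of the 24 h list were in that list alone. Beside the other cells, the mean of the adjacent Avpi1 pair was 67.7 CPM in TKO at 0 h, 64.0 in ES cells and 17.8 in MEF, and that of the adjacent Ahnak pair was 40.8, 30.9 and 67.9.

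**Figure D5:**
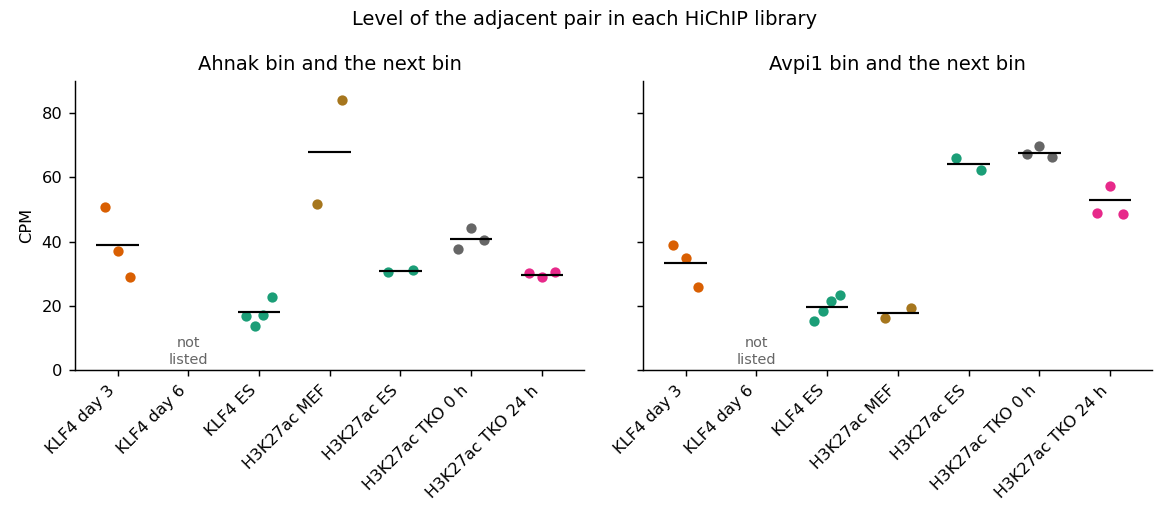
Level (CPM) of the adjacent pair that chose each gene in every HiChIP library, by group; dots are libraries and lines are group means, in which libraries that agreed within sampling noise count as 1. KLF4 levels are higher at day 3, where they chose the pairs, than in ES cells for both genes. H3K27ac levels are higher in MEF than in ES cells for Ahnak and lower in MEF for Avpi1.

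Hi-C, without an antibody, listed Ahnak with 5 pairs in MEF and 15 in ES cells, and Avpi1 with 4 and 8. Both Hi-C lists were filtered more strictly, with no p-value above 0.00998. The 15 Ahnak pairs in ES cells were more than 96.7% of chromosome 19 bins with any pair had there, and its MEF pairs more than 66.0%. For Avpi1 these shares were 73.8% in ES cells and 56.2% in MEF. The Hi-C values carry a chromosome constant that the sources used here do not give, so they are called signal, and they compare only within Hi-C. The pairs that chose the genes did not stand out here: the Ahnak pair was listed in ES cells alone, at a signal of 51.3 and 46.7, rank 920 of 1000 adjacent pairs, and the Avpi1 pair was in neither list. The MEF pairs of Ahnak all lay 70 to 120 kb to the right, and the one at its 3′ end was the strongest, at 26.1 and 28.3 in MEF and 33.4 and 26.8 in ES cells (log2 change 0.14, SE 0.30, adjusted p = 0.999).

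For Avpi1 the pair 20 kb to the left had 43.4 and 63.7 in MEF and 58.4 and 47.6 in ES cells (log2 change -0.02, SE 0.24, adjusted p = 0.999). Of 8 member pairs in both Hi-C lists, 0 were called by edgeR's quasi-likelihood test and 0 by DESeq2, and 1 had an unadjusted p under 0.05, the Ahnak pair 70 kb away with 17.4 and 17.0 in MEF and 35.8 and 21.8 in ES cells (log2 change 0.72, adjusted p = 0.785). Over all 124204 pairs 0.0322% were called, and 6.07% had an unadjusted p under 0.05. The Hi-C log2 change was above 0 in 5 of 5 Ahnak pairs, with a median of 0.43 and SEs of 0.30 to 0.34. Over all pairs the median was 0.0025. Without replicate 1 of ES cells the Ahnak pair at 90 kb stood at -0.0070. The same 5 pairs were all lower in ES cells for H3K27ac. These 5 pairs share 1 bin and are not independent, and none was called in Hi-C, so no opposite change is read from them.

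The authors' domains, given once per cell type without replicates, placed the genes in different surroundings. In ES cells Ahnak lay in chr19:8720001-9160000 and in MEF in a longer domain, chr19:8720001-10520000, and 1 of its 35 pairs, 270 kb to the left at Slc3a2, left them. Avpi1 lay in chr19:41280001-42800000 in ES cells, whereas in MEF its domain ended at 42160000, which is 30 kb past its bin. The KLF4 pair 40 kb to the right at day 3, at the bin of Zfyve27, crossed that MEF border with 12.5, 9.82 and 9.70 CPM. Domain borders are drawn in steps of 40 kb, and this partner is the first bin past the border. H3K27ac pairs also reached 50 and 160 kb in ES cells, 160 kb in TKO at 0 h and 140 and 160 kb at 24 h, all past it. This pair was listed for H3K27ac in all 4 groups (5.61 and 7.50 CPM in MEF, 9.65 and 7.63 in ES cells) and for Hi-C in ES cells alone.

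Some contacts appeared almost everywhere. Ahnak had 4 pairs in all 9 lists, those 70, 90, 100 and 120 kb to the right, which are also its 4 day 6 pairs, and Avpi1 had 1, that 20 kb to the left. Of the partner bins, 29 of 35 for Ahnak and 14 of 25 for Avpi1 carried an H3K27ac peak at both times in the authors' TKO annotation, and 13 and 10 were assigned a gene. Both gene bins carried the peak at both times. Peaks and gene names were read from the TKO H3K27ac lists only. Shares over all pairs and partner bins were not counted, so these counts do not say whether either gene is unusual.

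Genes with a like number of pairs across the 9 lists were sought among 501 other genes of chromosome 19, by the mean absolute difference in log2 of the pairs plus 1. Closest to Ahnak was Ganab (0.39), itself a partner of Ahnak, with 12, 7 and 12 KLF4 pairs at day 3, day 6 and in ES cells. Closest to Avpi1 were Fam160b1 and B230217O12Rik (0.28 each), which share a bin, with 17, 3 and 5 KLF4 pairs, and Frmd8os (0.29), taken by name among genes of the same bin and value. Over all 501 genes the median difference was 1.87 from Ahnak and 1.39 from Avpi1. The 9 lists differ in depth and length, which every gene shares.

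The proteins that AHNAK binds were looked up as counts. Of Anxa2, S100a10, Dysf, Cacnb2 and Smad3, Cacnb2 had no bin. At day 3 Anxa2 had 7 KLF4 pairs and S100a10 had 5, at day 6 they had 0 each, and in ES cells 0 and 1. Dysf and Smad3 had 0 KLF4 pairs in all 3 lists. For H3K27ac Anxa2 had 9 pairs in MEF and 0 in ES cells, S100a10 had 6 and 5, Dysf had 1 and 0, and Smad3 had 4 and 2. Of the 4 pairs of this list in both H3K27ac lists, 3, all of S100a10, were lower in ES cells, 0 were higher, and 1, of Smad3, did not pass. Over all 17901 pairs 14.4% were called lower and 17.6% higher in ES cells. The 3 pairs share the 1 bin of S100a10 and are not independent, so they do not speak for the list as a whole.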

How the data were processed

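Contacts between 10 kb bins were measured in 21 HiChIP and 4 Hi-C libraries of mouse cells fixed with 1% formaldehyde. Reads were aligned with Bowtie2 2.2.3 to mm10, per the submitters' processing notes; the contact caller and the test behind the listed p-value are not given in the sources used here. Each list gives, per the file headers, a raw count and a CPM per replicate and 1 p-value and FDR per pair. In Hi-C the deposited CPM column is a signal scaled by unknown constants. The deposited distance-normalized score was not used, and of the authors' domain lists the borders were used and the score was not. The number of columns of per-sample values with no sample was 0. Gene names per bin are the authors', from the TKO lists; positions and upstream sequences are RefSeq's, in which both genes matched by symbol.

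Members, lists and tests were chosen with earlier results of these data known. Pairs are named if they chose the gene, are the strongest of the gene in a list, were called, or are in 6 or more of 9 lists; other pairs are described as examples chosen after their values were seen. Of the genes most like Ahnak in their number of pairs, only the closest is reported here. Counts of pairs in both groups were tested with edgeR 4.0.16 (R 4.3.3): filterByExpr, TMM on contact totals (count sums in Hi-C), quasi-likelihood test, only the groups compared, Benjamini-Hochberg adjustment over all pairs. The log2 change is of counts with edgeR's prior count, and its SE was taken from the p-value and the test's degrees of freedom. This fit was also run on simulated data with 200 changed pairs, whose outcome is not reported here and is not used as support. DESeq2 1.42.0, other scalings, filters and left-out libraries were alternatives. KLF4 levels chose the genes and were not tested.

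Replicates are biological per the design text. Libraries of a group that agreed within sampling noise (chi-square p of 0.05 or more, while another pair of the group differed) were summed and counted as 1. This joined replicates 1 and 2 and replicates 3 and 4 of ES KLF4, and replicates 1 and 3 of TKO at 24 h. At day 6 none of 6 pairs of libraries differed, and the 4 were kept separate. In TKO at 0 h replicates 2 and 3 differed narrowly and were kept separate. Which pairs enter this check was settled after such p-values had been seen. Python 3.11.15 with pandas 2.3.3, numpy 2.4.6 and scipy 1.17.1 made the tables. Values cover counting and library spread only, since PCR copies are not independent molecules.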

Additional observations from a re-analysis of the deposited data

How the results depend on the processing

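Of 39 member pairs tested for H3K27ac between MEF and ES cells, 21 were called by edgeR, 7 by DESeq2 and 11 to 19 when 1 library was left out, the lowest without replicate 2 of MEF. DESeq2 gave 22 of the 39 no adjusted p, and 29 of 36 in TKO. Without replicate 2 of MEF the Ahnak pair at Ganab changed sign (log2 change 0.16, with -1.09 to 0.16 over the libraries left out). In TKO 0 pairs were called, and 2 with contact totals without TMM; leaving out a library gave 0 to 0, as in Hi-C. The replicate numbers are shared between groups. Deviations of same-numbered libraries were nearly uncorrelated (r = 0.03 for MEF and ES). Counting noise can hide a small shared effect, so this does not settle whether the samples are paired. A replicate block gave 20 calls for MEF and ES and 0 for TKO and Hi-C. At day 3 the number of listed pairs went from 16 to 43 for Ahnak when a bin next to the gene's counted, and from 14 to 8 for Avpi1 at a mean of 5 CPM or more. With each anchor 1 bin away, the chosen pair of each gene had 1 match at day 6 in place of 0. Without 1 day 3 library the chosen pair had 33.1 to 43.9 CPM for Ahnak and 30.4 to 37.0 for Avpi1. Over all pairs, calls between MEF and ES cells were 2458 with DESeq2, 3368 for anchors 20 kb or more apart and 3333 without replicate 2 of MEF, against 5721. In TKO they were 269 with DESeq2, 3202 without TMM, 940 for anchors 20 kb or more apart and 1132 at the lowest without 1 library, against 1894. In Hi-C they were 0 with DESeq2, 74 with the block and 3 to 113 without 1 library, against 40. An alternative with TKO replicates 2 and 3 at 0 h joined, chosen after seeing the data, gave 0 member calls. Single named pairs were followed under alternatives too, but with no DESeq2 value for several Ahnak pairs called between MEF and ES cells. Those pairs thus do not count as lost under DESeq2. Of the 680 values of single named pairs, 613 kept their direction and side of the threshold, 32 passed it no longer and 7 passed it newly. The other 28 changed sign, of which 27 were of pairs not called in the fit reported. For MEF and ES cells these were Avpi1 pairs. The one 40 kb to the left stood at -0.054 with totals of the same chromosome and at -0.31 to 0.85 with 1 library left out, that at 30 kb left at -0.079 to 0.96, and that at 20 kb left at 0.16 without TMM and -0.35 to 0.14. In TKO without TMM the values were -0.028 for Ahnak 10 kb left, -0.075 for Ahnak 120 kb right and -0.077 for Avpi1 40 kb right. With 1 TKO library left out they were -0.22 to 0.083, -0.45 to 0.00082, -0.26 to 0.027 and -0.14 to 0.19 for Ahnak at 150, 90 and 20 kb left and 120 kb right, and -0.28 to 0.10, -0.14 to 0.12 and -0.10 to 0.10 for Avpi1 at 50 and 30 kb left and 40 kb right. In Hi-C they were -0.0070 to 0.31 for Ahnak 90 kb right, and -0.27 to 0.30 and -0.025 to 0.33 for Avpi1 20 kb left and right. The cause was not tested.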
